A study of Mus musculus with 40 samples.

Results

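The 10 genes described here mark lymphocytes: Cd3d, Cd3e, Cd3g, Cd8a, Cd8b1 and Cd4 of T cells, Nkg7 and Gzma of NK cells and cytotoxic T cells, and Cd79a and Jchain of B cells and plasma cells. The rule lists them by name and has no threshold on a measured value, though results of these data were known when they were chosen, and all 10 were found among the 55359 mouse gene identifiers of the count files. Their messenger RNA was measured by bulk sequencing of right kidneys from 40 male C57BL/6 mice (C57BL/6NCrl in the study's design). TCDD (2,3,7,8-tetrachlorodibenzo-p-dioxin), dissolved in sesame oil, was given by gavage once every 4 days over 28 days, between the ages of 30 and 58 days. The 8 groups of 5 mice were vehicle (sesame oil alone) and TCDD at 0.03, 0.1, 0.3, 1, 3, 10 and 30 µg/kg. The mice carried no engineered allele that the labels name. Each library came from about 100 mg of frozen whole tissue, so fewer cells of a type and less RNA per cell cannot be told apart. Here n counts mice, 1 library each.

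T cells recognise antigen through a receptor whose signal passes through the CD3 chains, with CD4 or CD8 as the co-receptor that binds MHC class II or class I on the other cell. NK cells and cytotoxic T cells kill through granules that hold perforin and granzymes, and B cells signal through CD79 chains and can become plasma cells that secrete antibody. A healthy kidney holds few of these cells, and TCDD binds the aryl hydrocarbon receptor (AhR), which turns on target genes and is also present in lymphocytes.

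Gene counts summed to between 15278423 and 25575317 per library, and 17345 genes were tested. The AhR target Cyp1a1, a cytochrome P450, rose from 2.37 ± 1.25 CPM (CPM, the gene's counts relative to all gene counts of its library; SD, n = 5) without TCDD to 2540 ± 435 CPM with 30 µg/kg, with an edgeR adjusted p of 2.58e-22. Kidney parenchyma markers summed to between 28010 and 38020 CPM in the vehicle libraries and to between 14890 and 29620 CPM in those of 30 µg/kg. In 2 libraries, 0.03 µg/kg replicate 1 and 1 µg/kg replicate 4, adrenal cortex markers summed to 797 and 830 CPM, against at most 43.8 CPM in any other library.

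AhR binds DNA with the core letters GCGTG, so the promoters of the 10 genes were read for them on both strands. RefSeq windows of build GRCm38.p6, from 250 bases before to 50 after the annotated start, were given for 8 of the 10 genes (not for Cd4 and Cd8b1). The core was found in 2 of the 8, Cd8a and Cd79a, and in 32.4% of all 32851 such windows. Those 2 windows are shown because they hold the core, and that of Nkg7 because its level rose over the doses. Each is printed 5′ to 3′ in the gene's direction, with the match in capitals; both matches lie on the opposite strand and so read CACGC. Cd8a lies at chr6:71373177-71373476 on the plus strand with its match at base 282 of the window. Cd79a lies at chr7:24897247-24897546 on the plus strand with its match at base 58. Nkg7 lies at chr7:43436888-43437187 on the plus strand, and these letters are not in its window.
Cd8a: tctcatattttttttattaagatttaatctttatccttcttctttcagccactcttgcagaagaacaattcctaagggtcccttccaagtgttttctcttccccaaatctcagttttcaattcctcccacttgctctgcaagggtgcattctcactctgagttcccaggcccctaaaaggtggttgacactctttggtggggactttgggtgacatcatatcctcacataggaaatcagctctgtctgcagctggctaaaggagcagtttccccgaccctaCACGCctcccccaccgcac
Cd79a: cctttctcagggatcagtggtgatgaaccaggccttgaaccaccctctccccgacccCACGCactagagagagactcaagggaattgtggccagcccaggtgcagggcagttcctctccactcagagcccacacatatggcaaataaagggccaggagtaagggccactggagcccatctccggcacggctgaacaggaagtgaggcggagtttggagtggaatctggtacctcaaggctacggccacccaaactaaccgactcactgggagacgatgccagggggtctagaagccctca
Nkg7: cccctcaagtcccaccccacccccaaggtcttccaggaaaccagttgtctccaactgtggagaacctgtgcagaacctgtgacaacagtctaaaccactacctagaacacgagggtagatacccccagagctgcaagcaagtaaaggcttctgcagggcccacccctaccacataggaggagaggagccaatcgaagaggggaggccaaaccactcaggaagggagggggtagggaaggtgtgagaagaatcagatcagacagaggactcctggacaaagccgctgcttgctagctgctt
A match is a description of the letters and does not show that AhR binds there.

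All 10 genes gave few counts in kidney. On the CPM scale, which sets the counting precision and is not corrected for length, the median tested gene stood at 14.2 CPM, and the mean level of these genes over the 40 libraries ran from 0.266 CPM for Cd8b1, at the 0.848th percentile of tested genes, to 2.63 CPM for Cd8a, at the 28.8th percentile. Of the 400 library values, 379 held at least 1 count, and all 10 genes passed edgeR's filter on low counts. Their variance within groups was 2.87 to 5.69 times what counting alone gives, where the median over the 4774 tested genes with mean counts in the same range was 4.02. Per length of exons, Cd8a (0.723 RPKM, CPM per kilobase of exon) and Nkg7 (0.718 RPKM) were the most abundant. Cd79a (0.434 RPKM), Gzma (0.368 RPKM) and Jchain (0.308 RPKM) followed, and Cd3e (0.113 RPKM) was the lowest.

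None of the 10 genes passed the test at any single dose. Against vehicle, edgeR's quasi-likelihood test with Benjamini-Hochberg adjustment called 0 of 10 at each of the 7 doses. Over all 17345 genes it called 0% at 0.03 µg/kg, 0% at 0.1, 0.00577% at 0.3, 0.513% at 1, 1.1% at 3, 4.83% at 10 and 15.9% at 30. At an unadjusted p under 0.05 the members were 1 at 0.03 µg/kg (Cd3g), 0 at 0.1, 0.3 and 1, 2 at 3 (Nkg7 and Jchain), 2 at 10 (Cd4 and Nkg7) and 1 at 30 (Nkg7). Over all genes the share under 0.05 was 5.67% at 0.03 µg/kg, 5.53% at 0.1, 5.23% at 0.3 and 7.09% at 1. At the higher doses it was 8.95% at 3 µg/kg, 15.7% at 10 and 27.6% at 30. DESeq2 and limma-voom each called 0 of 10 at every dose except 10 µg/kg, where each called 1, Cd4. A second test asked for a log2 change per dose step, with the groups ranked from 0 for vehicle to 7 for 30 µg/kg. By it 2 of the 10 genes rose, Cd4 and Nkg7, and none fell, where 19.8% of all genes changed (11% rose and 8.84% fell). The share of the 10 was thus near that of all genes. All 7 dose comparisons use the same 5 vehicle libraries. The median log2 fold change of the 10 genes against vehicle was 0.23 at 10 µg/kg and 0.05 at 30 µg/kg, beside -0.01 and 0.01 over all genes.

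**Figure D1:**
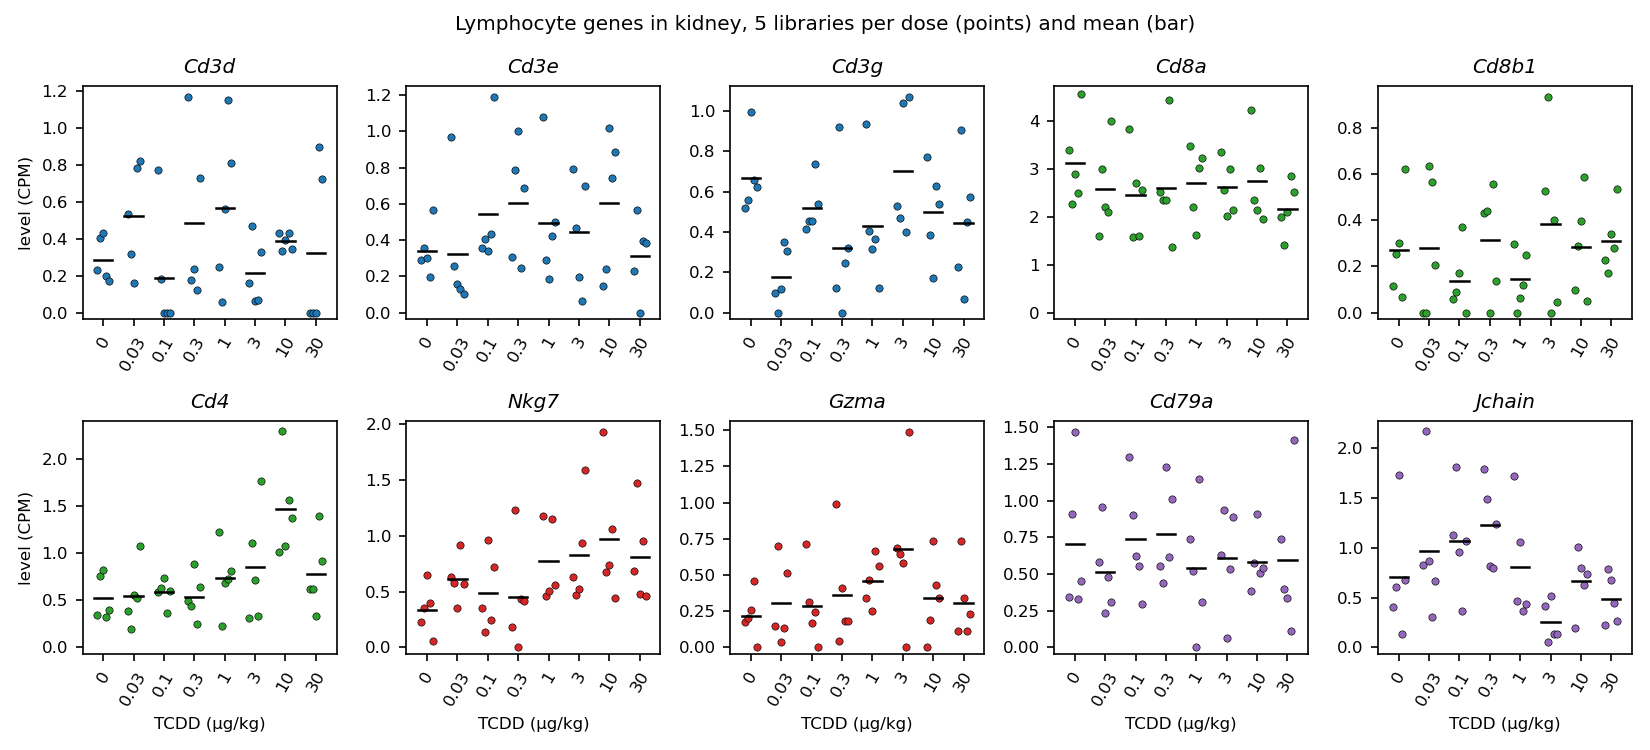
Level of each of the 10 genes (vertical axis, CPM) in every library (points, 5 per group) by TCDD dose in µg/kg (horizontal axis, 0 is vehicle); black bars are group means, blue panels are CD3 chains, green co-receptors, red cytotoxic and purple B lineage genes. The 5 Cd4 values at 10 µg/kg, 1.01 to 2.30 CPM, lie above all 5 vehicle values, 0.328 to 0.820 CPM.

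The 3 CD3 chains, signalling subunits of the T cell receptor, did not pass the test at any dose or over the doses. Cd3d held 0.373 CPM, Cd3e 0.459 CPM and Cd3g 0.470 CPM on average over the 40 libraries. Their summed level had group means between 1.02 CPM at 0.03 µg/kg and 1.49 CPM at 10 µg/kg. Vehicle libraries averaged 1.30 ± 0.281 CPM and those of 30 µg/kg 1.08 ± 0.768 CPM (SD, n = 5). At least 1 chain was at 0 counts in 8 of 40 libraries, which allows up to 3 counts, and no library had all 3 at 0. The 3 chains together gave 1 to 46 counts in a library.

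Cd3d stood in vehicle at 0.230, 0.405, 0.432, 0.197 and 0.170 CPM. At 30 µg/kg it was at 0 in replicates 1, 2 and 3 and at 0.897 and 0.725 CPM in the others, so 3 libraries lay below and 2 above every vehicle library. Cd3d changed by -0.01 ± 0.09 log2 (SE) per dose step, with an edgeR adjusted p of 0.963. Cd3e, whose exons share 135 bases (3.31%) with a gene on the opposite strand that unstranded counting cannot separate, changed by 0.04 ± 0.07 per step (edgeR adjusted p = 0.792). Its group means ran from 0.313 CPM at 30 µg/kg to 0.606 CPM at 10 µg/kg. The other 9 genes share no exonic base with another gene in the GENCODE M21 annotation.

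Cd3g in vehicle stood at 0.518, 0.557, 0.993, 0.657 and 0.623 CPM. With 0.03 µg/kg, the lowest dose, its values were 0.097, 0, 0.119, 0.349 and 0.308 CPM. Those 5 libraries all lay below the 5 vehicle libraries, as was so for 0.438% of all genes at that dose. The difference for Cd3g was -1.87 ± 0.66 log2, with an unadjusted edgeR p of 0.00678, and the adjusted p was 0.846. At 3 µg/kg the Cd3g mean was 0.702 ± 0.328 CPM, close to that of vehicle, 0.669 ± 0.189 CPM (SD, n = 5). Over the dose ranks the change was 0.03 ± 0.07 per step (edgeR adjusted p = 0.849). Of the 70 pairs of a gene and a TCDD group, Cd3g at 0.03 µg/kg and Cd4 at 10 µg/kg were the 2 whose range did not overlap that of vehicle. Among all genes the share so separated, per dose and direction, ran from 0.381% at 0.3 µg/kg to 4.32% above vehicle at 10 µg/kg.

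Cd8a, the alpha chain of the CD8 co-receptor of cytotoxic T cells, gave the most counts of the 10 and the narrowest spread within groups, with a coefficient of variation of 32.8% beside 50.7 to 88.9% for the other 9. In vehicle it stood at 3.40, 2.28, 2.89, 2.50 and 4.58 CPM. The libraries of 30 µg/kg held 1.99, 1.41, 2.10, 2.86 and 2.52 CPM. Of these 5 libraries, 3 lay below every vehicle library, and the ranges overlapped. For Cd8a at 30 µg/kg the log2 fold change came to -0.52 (95% interval -1.11 to 0.07), and the edgeR adjusted p was 0.252. Group means at the other 6 doses lay between 2.46 and 2.75 CPM, below the vehicle mean of 3.13 ± 0.918 CPM (SD, n = 5) by less than that SD. Over the dose ranks the change was -0.03 ± 0.03 per step (edgeR adjusted p = 0.510).

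Cd8b1 encodes the CD8 beta chain, which pairs with the alpha chain on most cytotoxic T cells, while CD8 alpha alone is also found on some dendritic cells and innate-like lymphocytes. Cd8b1 averaged 0.266 CPM and was at 0 counts in 6 of 40 libraries. Per length, Cd8a exceeded Cd8b1 in 40 of 40 libraries, with a ratio of mean RPKM of 4.04. Vehicle libraries averaged 0.272 ± 0.219 CPM of Cd8b1 and those of 30 µg/kg 0.310 ± 0.140 CPM (SD, n = 5). This is a log2 fold change of 0.19, with a 95% interval from -1.53 to 1.92. At this depth and spread the estimate is thus compatible with a sizeable change in either direction.

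Cd4, the co-receptor of helper T cells that some mouse dendritic cells also carry, rose over the doses. In vehicle it stood at 0.345, 0.759, 0.820, 0.328 and 0.396 CPM. With 10 µg/kg it reached 1.01, 2.30, 1.08, 1.57 and 1.37 CPM, and with 30 µg/kg 0.624, 0.622, 0.339, 1.40 and 0.916 CPM. All 5 libraries at 10 µg/kg lay above all 5 vehicle libraries, as was so for 4.32% of all genes at that dose. Of the libraries of 30 µg/kg, 2 of 5 did. The group means were 0.530 ± 0.239 CPM in vehicle and, from the lowest dose up, 0.547, 0.585, 0.540, 0.737, 0.850, 1.47 ± 0.519 and 0.781 ± 0.403 CPM (SD, n = 5). The trend was 0.17 ± 0.05 log2 per dose step, with an edgeR adjusted p of 0.0159.

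Taken alone, the 10 µg/kg group had a log2 fold change of Cd4 of 1.44 ± 0.47 (95% interval 0.49 to 2.39), a fold of 2.71, and it missed the threshold with an edgeR adjusted p of 0.0686. It passed with DESeq2 (adjusted p = 0.0366), with limma-voom (adjusted p = 0.0465) and with edgeR on those 10 libraries alone (adjusted p = 0.0406). In the 30 µg/kg group it was 0.54 (95% interval -0.43 to 1.51; edgeR adjusted p = 0.510). The difference between 10 and 30 µg/kg was not tested, and their ranges overlap. The trend of Cd4 kept an edgeR adjusted p between 0.00781 and 0.0460 on leaving out any 1 library. On 1 stranded column, which holds fewer reads, it was 0.0860. The library titles are numbers that form 2 runs, 1 to 27 and 28 to 53, which the labels do not call a batch. Within the first run Cd4 averaged 0.641 CPM in vehicle and 1.46 CPM with 10 µg/kg, and within the second 0.362 and 1.47 CPM. With 30 µg/kg it averaged 0.528 CPM in the first run, below vehicle, and 1.16 CPM in the second, above it.

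Nkg7, a membrane protein of cytotoxic granules, was the other gene that rose over the doses. In vehicle it stood at 0.230, 0.354, 0.647, 0.394 and 0.0566 CPM. With 10 µg/kg it reached 1.93, 0.672, 0.736, 1.06 and 0.442 CPM, and with 30 µg/kg 0.681, 1.47, 0.474, 0.953 and 0.458 CPM. Of the libraries of 10 µg/kg 4 of 5, and of 30 µg/kg 3 of 5, lay above every vehicle library. The group means were 0.337 ± 0.218 CPM in vehicle and, from the lowest dose up, 0.609, 0.483, 0.451, 0.770, 0.829, 0.967 ± 0.580 and 0.807 ± 0.421 CPM (SD, n = 5). Every TCDD mean was thus above that of vehicle, and the trend was 0.17 ± 0.06 log2 per step (edgeR adjusted p = 0.0421).

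Single doses gave Nkg7 log2 fold changes of 1.48 ± 0.60 with 10 µg/kg and 1.22 ± 0.60 with 30 µg/kg, with edgeR adjusted p of 0.173 and 0.181. Its trend was near the threshold, and 13 of the 40 fits that left out 1 library lost the call. Those libraries were vehicle replicates 1, 2, 4 and 5, 0.03 µg/kg replicate 3, 0.1 µg/kg replicates 1, 2 and 4, 3 µg/kg replicate 5, 10 µg/kg replicates 1 and 4, and 30 µg/kg replicates 2 and 4. Over all 40 such fits the edgeR adjusted p of Nkg7 ran from 0.0277 to 0.0934. The call was also lost with no filter on low counts (0.0565), on 1 stranded column (0.0619) and without the 30 µg/kg group (0.0791). Within the first run of title numbers Nkg7 averaged 0.411 CPM in vehicle and 0.875 CPM with 30 µg/kg, and within the second 0.225 and 0.706 CPM.

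Gzma, which encodes granzyme A, a protease of the same granules, did not pass at any dose. Its vehicle values were 0.173, 0.202, 0.259, 0.460 and 0 CPM. Its highest group was 3 µg/kg, with 0.685, 0.642, 0.586, 0 and 1.49 CPM. There 4 of 5 libraries lay above every vehicle library and 1 was at 0 counts. Gzma there differed from vehicle by 1.65 ± 0.82 log2 (edgeR adjusted p = 0.557). Its mean with 30 µg/kg was 0.306 ± 0.258 CPM, against 0.219 ± 0.166 CPM in vehicle (SD, n = 5), and the trend was 0.11 ± 0.09 per step (edgeR adjusted p = 0.446).

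Cd79a, a signalling chain of the B cell receptor, had group means that differed by less than the SD of vehicle, 0.489 CPM. Its values in vehicle were 0.345, 0.911, 1.47, 0.328 and 0.453 CPM, and at 30 µg/kg 0.738, 0.396, 0.339, 0.112 and 1.41 CPM. Only 1 of those 5 libraries lay outside the vehicle range, below it. Group means ran from 0.513 CPM at 0.03 µg/kg to 0.771 CPM at 0.3 µg/kg, and the change was -0.02 ± 0.06 log2 per step (edgeR adjusted p = 0.848). The highest dose differed from vehicle by -0.21 log2, with a 95% interval from -1.40 to 0.98.

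Jchain, which links antibody units of IgA and IgM, had its highest mean at 0.3 µg/kg and its lowest at 3 µg/kg. In vehicle its values were 0.403, 0.607, 1.73, 0.131 and 0.679 CPM. With 3 µg/kg they were 0.421, 0.0584, 0.521, 0.134 and 0.140 CPM. These ranges overlap, with 1 library at 3 µg/kg below every vehicle library. Jchain there had a log2 fold change of -1.50 ± 0.61, with an unadjusted edgeR p of 0.0179 and an adjusted p of 0.380. With 10 µg/kg the Jchain mean was 0.671 ± 0.301 CPM, near the 0.709 ± 0.607 CPM of vehicle, and for 30 µg/kg it was 0.482 ± 0.248 CPM (SD, n = 5). The trend was -0.15 ± 0.07 per step and missed the threshold (edgeR adjusted p = 0.125).

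**Figure D2:**
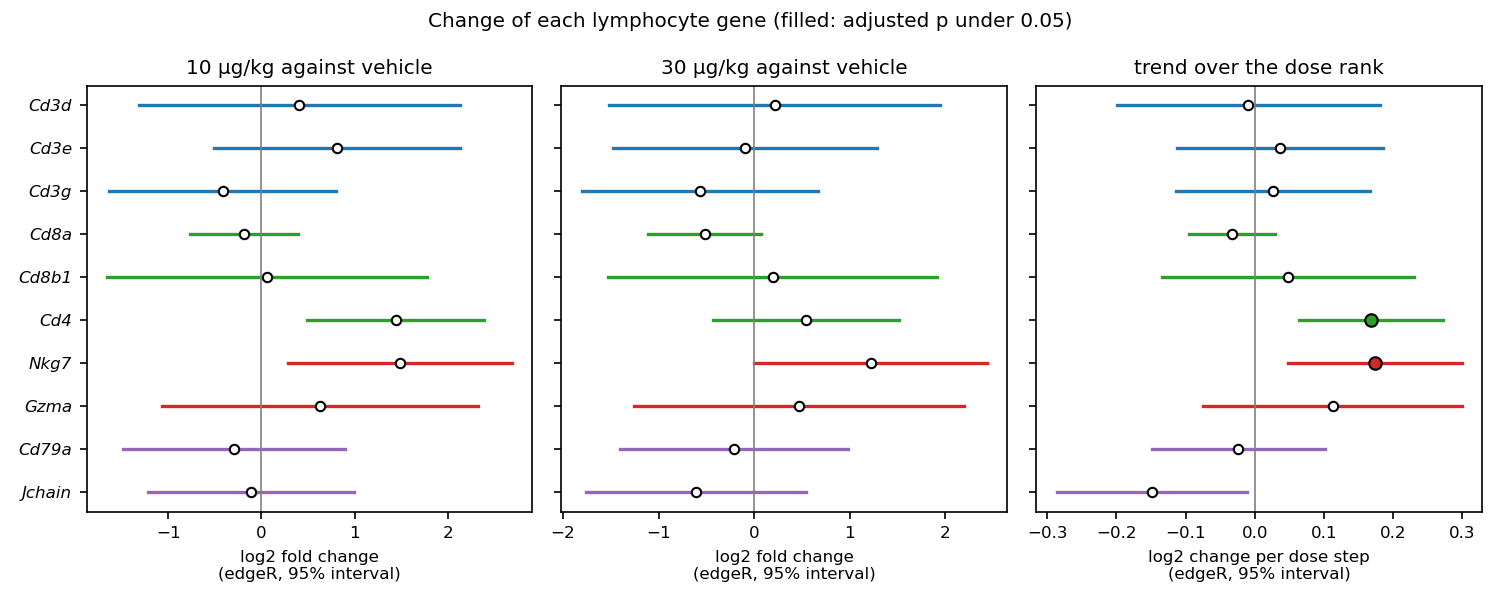
Log2 fold change against vehicle at 10 and 30 µg/kg (left and middle) and log2 change per dose step (right) of each gene, as points with 95% intervals from edgeR; filled points have an adjusted p under 0.05. The filled points are Cd4 at 0.17 and Nkg7 at 0.17 per step, and no point in the other panels is filled.

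When the 8 groups were ordered by mean, each of the 7 pairs of neighbouring groups overlapped in range for every one of the 10 genes. The highest group mean was 1.44 times the lowest for Cd8a, 1.50 times for Cd79a and 4.82 times for Jchain. Doses with the highest mean were 10 µg/kg for Cd4, Nkg7 and Cd3e, 3 µg/kg for Cd3g, Cd8b1 and Gzma, 1 µg/kg for Cd3d, 0.3 µg/kg for Cd79a and Jchain, and vehicle for Cd8a.

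Whether the genes were high in the same mice was tested for 6 pairs over the 40 libraries, on log2 CPM with dose group means removed, and no pair passed. Cd3e with Cd4 gave r = 0.272 and rho = 0.223, and Cd3e with Cd79a r = 0.286 and rho = 0.310 (permutation p adjusted over the 6 pairs = 0.451 for both r, and 0.658 and 0.418 for rho). Without the 2 libraries farthest from the median of Cd3e, r was 0.248 and 0.279. Cd3e with Cd8a gave r = -0.164 and rho = -0.0963 (adjusted permutation p = 0.689 and 0.801). Cd3e with Nkg7 gave r = 0.0295 and rho = 0.0762 (adjusted permutation p = 0.894 and 0.801). Cd8a with Nkg7 gave r = 0.113 and rho = 0.148 (0.857 and 0.801), and Cd79a with Jchain r = -0.0253 and rho = -0.00375 (0.894 and 0.984). Without 2 libraries these 4 values of r were -0.102, -0.0253, 0.121 and 0.156. Over all 45 pairs of the 10 genes, dose included, r ran from -0.236 to 0.391 with a median of 0.0527, as a description.

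The genes most like Nkg7 over the 40 libraries, by Pearson's r of log2 CPM among 17265 genes, were Foxs1 (r = 0.671), Vsig2 (0.650), Dapp1 (0.639), Bst2 (0.636) and Lrrc25 (0.635). For Cd3e they were Btbd3 (r = 0.576), Igsf6, Kcnn3, Gab3 and Lrrc17 (0.548), and for Cd79a Lipt1 (r = 0.565), Dimt1, Grm7, Tubb4a and Gmfg (0.534). For Cd4, chosen after its values were seen, they were Ciita (r = 0.680), the activator of MHC class II genes, Ms4a14 (0.668), Dtx3l (0.646), Ifi203 (0.645) and Mall (0.642). These values are a description over points that share dose and library.

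Longer lists of lymphocyte genes gave the setting of the 10. For comparison, 11% of all genes rose and 8.84% fell over the doses, and 15.9% were called in either direction at 30 µg/kg. At an unadjusted edgeR p under 0.05 the share at 30 µg/kg was 27.6%. In the list of the T cell receptor complex and co-receptors, 13 of 16 genes were tested and 1 rose over the doses, Cd4, while edgeR called 0 at 30 µg/kg (0 at an unadjusted p under 0.05, and 0 by DESeq2 and limma-voom). Summed over the list, vehicle libraries held 8.53 ± 1.40 CPM, those of 10 µg/kg 10.4 ± 1.04 CPM and those of 30 µg/kg 8.83 ± 2.47 CPM (SD, n = 5). The median log2 fold change at 30 µg/kg was 0.19. Of the list of T cell signalling and identity, 16 of 20 genes were tested, and 6 rose over the doses and none fell. They include Il7r, the interleukin-7 receptor, which rose from 0.164 ± 0.0602 CPM without TCDD to 0.977 ± 0.625 CPM with 30 µg/kg (SD, n = 5; edgeR adjusted p = 0.00900). That vehicle level is low, and Il7r may have passed the filter on low counts through the dosed libraries. S1pr1, a receptor for lymphocyte exit that endothelial cells also express, rose from 8.72 ± 3.49 to 23.1 ± 5.88 CPM (edgeR adjusted p = 1.77e-05). Il7r was fitted in 6 alternatives at 30 µg/kg and 8 of the trend, beside 8 and 9 for S1pr1. Gata3, a factor of helper T cells that collecting duct cells also express, rose from 20.4 ± 1.31 to 28.4 ± 5.60 CPM (edgeR adjusted p = 0.00728). Txk and Lck, kinases of T cell signalling, rose by 0.20 ± 0.05 and 0.14 ± 0.04 log2 per step (edgeR adjusted p = 0.00367 and 0.0194). The Lck call was lost without 30 µg/kg replicate 2 (0.0609), without the 30 µg/kg group (0.0792) and on 1 stranded column (0.456, with 0.08 per step). On that column the Txk call was lost too (0.0650), and without the 30 µg/kg group that of Gata3 (0.281, with 0.03 per step).

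Of the list of regulatory T cell and checkpoint genes, 7 of 11 were tested, and 3 rose over the doses and none fell. Of all genes 11% rose over the doses and 8.84% fell. Havcr2, which encodes TIM-3 and is also found on macrophages, rose by 0.36 ± 0.07 log2 per step (edgeR adjusted p = 5.70e-05). Ikzf2 and Tnfrsf4, the factor Helios and the receptor OX40, rose by 0.10 ± 0.02 and 0.19 ± 0.06 (edgeR adjusted p = 0.000701 and 0.0176). The Tnfrsf4 call was lost with limma-voom (0.0575) and without the 30 µg/kg group (0.134).

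Besides Nkg7, 5 cytotoxic and NK genes rose over the doses. Of this list 11 of 24 genes were tested, 6 rose by the trend and none fell, 2 were called at 10 µg/kg and 1 at 30 µg/kg. Of all genes 11% rose by the trend, and 3.83% and 8.39% were called higher at 10 and 30 µg/kg. The 1 of 11 at 30 µg/kg was thus near the share of all genes. The summed level of the 24 was 6.35 ± 1.33 CPM in vehicle (4.81 to 7.89), 15.5 ± 1.83 CPM with 10 µg/kg (13.3 to 17.7) and 11.7 ± 4.77 CPM with 30 µg/kg (5.49 to 18.3; SD, n = 5). Il2rb, the beta chain of the interleukin-2 and interleukin-15 receptors, had vehicle values of 1.38, 1.27, 0.518, 0.526 and 0.509 CPM. With 10 µg/kg its values were 1.69, 3.93, 1.92, 3.57 and 2.01 CPM, all above every vehicle value. Such a separation was seen for 4.32% of all genes at that dose. Il2rb rose by 1.64 ± 0.41 log2 with 10 µg/kg and by 1.33 ± 0.41 with 30 µg/kg (edgeR adjusted p = 0.00852 and 0.0202). The call at 30 µg/kg was lost without vehicle replicate 3, 4 or 5 or 30 µg/kg replicate 2 (0.0576 to 0.0940), with limma-voom (0.0510), with only the 2 groups in the fit (0.0845) and on 1 stranded column (0.115). On that column the call at 10 µg/kg was lost as well (0.0760).

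Ccl5, a chemokine that cytotoxic cells secrete, rose by 0.28 ± 0.06 log2 per step (edgeR adjusted p = 0.000315), with a mean of 0.967 ± 0.242 CPM without TCDD and of 2.95 ± 0.624 CPM with 10 µg/kg (SD, n = 5). Prf1, which encodes perforin, the pore former of cytotoxic granules, rose by 0.30 ± 0.08 per step (edgeR adjusted p = 0.00487), with means of 0.265 ± 0.203 CPM without TCDD and 0.937 ± 0.798 CPM with 10 µg/kg. Against vehicle Prf1 did not pass at 10 or 30 µg/kg (edgeR adjusted p = 0.163 and 0.313). In the first run of title numbers Prf1 averaged 0.31 CPM in vehicle and 1.34 CPM with 10 µg/kg. In the second it averaged 0.198 and 0.338 CPM. With 3 µg/kg Prf1 averaged 0.495 CPM in the first run, above vehicle, and 0.127 CPM in the second, below it. Klrd1 and Klrk1, the NK receptors CD94 and NKG2D, rose by 0.28 ± 0.08 and 0.25 ± 0.08 per step (edgeR adjusted p = 0.00870 and 0.0125). The trend calls of these 4 genes and Il2rb held on leaving out any 1 library. On 1 stranded column that of Klrk1 was lost (0.154), and Klrd1 had no call. Klrd1 was fitted in 8 alternatives of the trend, beside 9 for the others. Against vehicle, Ccl5 passed at 10 µg/kg with an edgeR adjusted p of 0.0406, and 9 of the 10 fits that left out a vehicle or 10 µg/kg library lost that call (up to 0.107), as did the fits with no filter (0.0624) and on 1 stranded column (0.137).

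**Figure D3:**
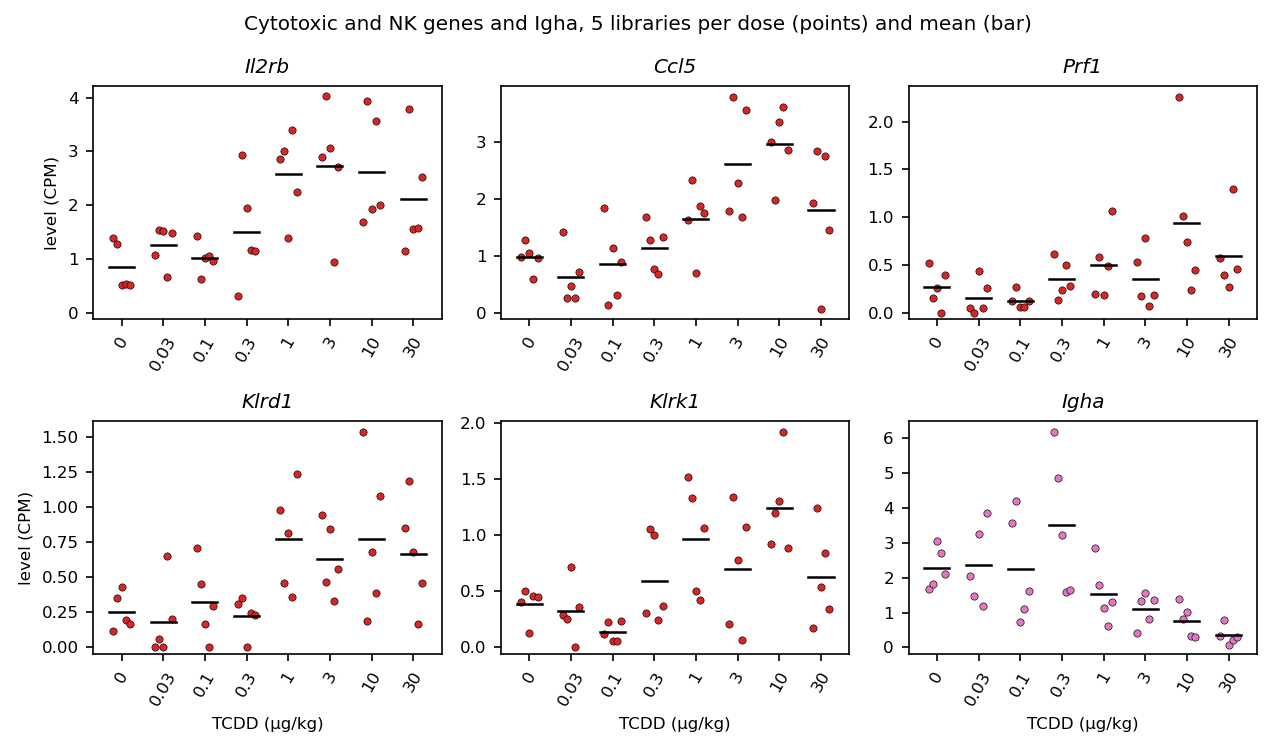
Level (vertical axis, CPM) of 5 cytotoxic and NK genes and of Igha in every library (points, 5 per group) by TCDD dose in µg/kg (horizontal axis, 0 is vehicle), with group means as bars. Mean Il2rb is 0.840 CPM for vehicle and 2.62 CPM for 10 µg/kg, and mean Igha is 2.27 CPM for vehicle and 0.346 CPM for 30 µg/kg.

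Of the B cell list, 15 of 20 genes were tested, and 2 rose over the doses and none fell, a share near the 11% of all genes that rose. H2-Ob, a chain of a peptide-loading regulator of B cells, rose by 0.12 ± 0.04 log2 per step (edgeR adjusted p = 0.0188; 0.383 on 1 stranded column, with 0.07 per step). Cd37, a tetraspanin, rose by 0.10 ± 0.04 (edgeR adjusted p = 0.0378), a call lost in 10 of the 40 fits without 1 library (up to 0.0968) and in 5 of the other alternatives (up to 0.413, without the 30 µg/kg group). In the 30 µg/kg group edgeR called 0 of the 15, with 5 at an unadjusted p under 0.05 and 0 called by DESeq2 or limma-voom, and the median log2 fold change was 0.04. Of all genes 27.6% had an unadjusted edgeR p under 0.05 at that dose. B cell genes summed to 17.6 ± 1.63 CPM without TCDD and 18.2 ± 3.88 CPM with 30 µg/kg (SD, n = 5).

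Genes of the plasma cell list moved in both directions. Of 16 genes 7 were tested. By the trend Irf4 rose and Igha and Igkc fell, where 11% of all genes rose and 8.84% fell. Igha, the constant region of the IgA heavy chain, stood in vehicle at 1.67, 1.82, 3.06, 2.69 and 2.09 CPM. With 10 µg/kg it stood at 1.40, 0.816, 1.02, 0.314 and 0.294 CPM, and with 30 µg/kg at 0.341, 0.791, 0.0678, 0.224 and 0.305 CPM. At both doses all 5 libraries lay below all 5 vehicle libraries, as was so for 1.82% of all genes at 10 µg/kg and 2.83% at 30 µg/kg. Igha differed from vehicle by -2.68 ± 0.54 log2 with 30 µg/kg and by -1.57 ± 0.49 with 10 µg/kg, with edgeR adjusted p of 0.000349 and 0.0502. The difference at 10 µg/kg passed with RLE factors (0.0495), DESeq2 (0.0214), limma-voom (0.0477), only the 2 groups in the fit (0.0246), the run of title numbers as a covariate (0.00951) and without the 2 libraries rich in adrenal markers (0.0489), and without 10 µg/kg replicate 1 it was -1.91 (0.0253). Its trend was -0.35 ± 0.07 per step (edgeR adjusted p = 0.000249), and leaving out any 1 library kept it between 6.26e-05 and 0.000852. Within the first run of title numbers Igha averaged 2.19 CPM in vehicle and 0.400 CPM with 30 µg/kg, and within the second 2.39 and 0.265 CPM. At 0.1 and 0.3 µg/kg the runs differed, with 3.88 and 4.76 CPM in the first, above its vehicle mean, and 1.15 and 1.63 CPM in the second, below it.

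Igkc, the kappa light chain, averaged 2.45 ± 0.369 CPM without TCDD and 1.31 ± 0.971 CPM with 30 µg/kg (SD, n = 5). Its trend of -0.15 ± 0.06 per step was at the threshold (edgeR adjusted p = 0.0487), and the call was lost in 25 of the 40 fits without 1 library (up to 0.0977) and in 4 of the other alternatives (up to 0.265, without the 30 µg/kg group). Irf4, a factor of plasma cells that macrophages and adipocytes also use, rose from 0.637 ± 0.495 CPM without TCDD to 3.29 ± 2.08 CPM with 30 µg/kg (SD, n = 5; edgeR adjusted p = 0.00128). The 5 values at 30 µg/kg were 1.02, 1.70, 6.17, 4.43 and 3.13 CPM, and 4 of them lay above every vehicle value. Without the 30 µg/kg group the trend of Irf4 went from 0.26 to 0.16 log2 per step and its call was lost (edgeR adjusted p = 0.216). Adipocyte markers summed to 89.95 to 220.1 CPM in vehicle libraries and 221.9 to 437.8 CPM in those of 30 µg/kg. Taken singly, 1 of the 6 rose at 30 µg/kg, 1 fell and 4 were not called (edgeR). Of all genes 8.39% rose and 7.55% fell at that dose. The part of adipocytes in the level of Irf4 was not tested.

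**Figure D4:**
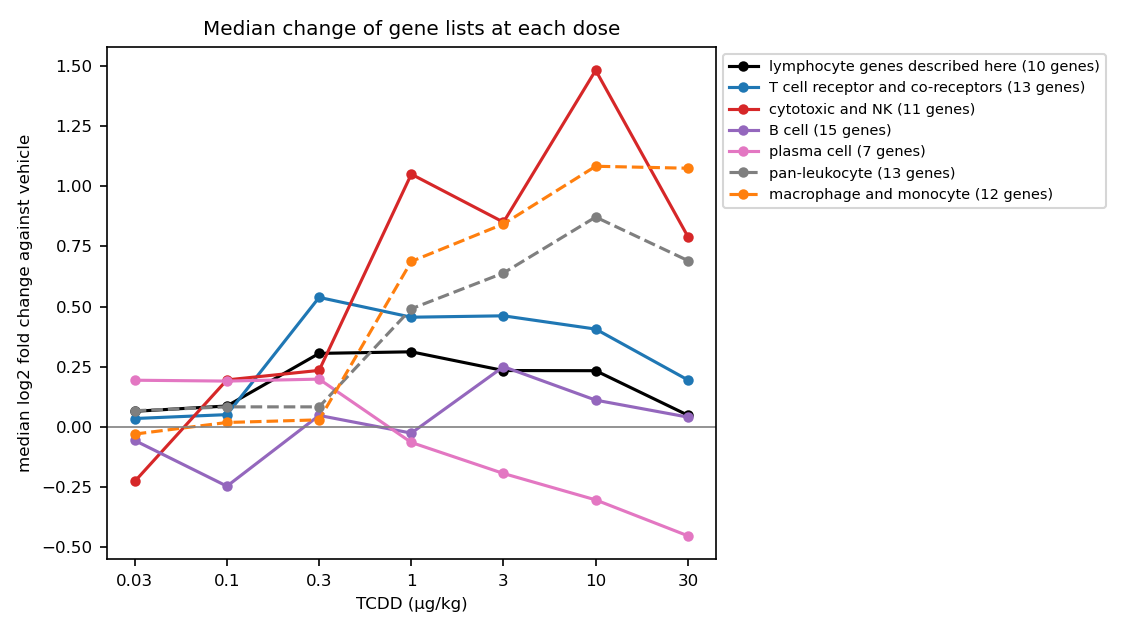
Median log2 fold change against vehicle (vertical axis) at each TCDD dose in µg/kg (horizontal axis) of the 10 genes and of 6 longer lists, with the number of tested genes in the key; all doses share the 5 vehicle libraries. At 10 µg/kg the medians were 1.48 for cytotoxic and NK genes, 1.08 for macrophage and monocyte genes, 0.23 for the 10 genes and 0.11 for B cell genes.

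Markers of other cells moved over the same doses. Over all genes, 11% rose and 8.84% fell by the trend, and 8.39% rose and 7.55% fell at 30 µg/kg (edgeR). Of 13 tested pan-leukocyte genes, which T, B and NK cells share with myeloid cells, 10 rose by the trend, and their list of 14 summed to 109.2 to 120.8 CPM without TCDD and 170.3 to 187.7 CPM with 10 µg/kg (131.3 to 195.8 with 30). Of 12 macrophage and monocyte markers 10 rose, with sums of 96.7 to 157 CPM without TCDD and 222 to 270 CPM with 10 µg/kg. Of 7 tested dendritic cell markers 3 rose. Of 7 tested lymph node and lymphatic markers 2 rose, and their summed group means lay between 28.6 and 31.4 CPM at all doses. Neutrophil markers summed to 0.453 to 0.806 CPM without TCDD and 0.791 to 3.01 CPM with 30 µg/kg. Of the 2 of 8 tested, S100a9 rose by 0.33 ± 0.08 log2 per step (edgeR adjusted p = 0.00126), and Ly6g had at most 3 counts in every library. Of 7 thymus markers 1 was tested, Cd1d1, which many other cells express and which rose at 30 µg/kg by 0.99 ± 0.30 log2 (edgeR adjusted p = 0.0156), and Rag1 had at most 3 counts in every library. Of 12 kidney parenchyma markers 4 fell and 2 rose by the trend, and 5 fell and 1 rose at 30 µg/kg (edgeR), where their sum averaged 20210 ± 6536 CPM against 32330 ± 4339 CPM in vehicle (SD, n = 5). The part of these cells in the levels of Cd4, Nkg7, Il2rb and the other genes above was not tested. Without the 2 libraries rich in adrenal markers, the counts of called members were the same, with 0 at each dose and Cd4 and Nkg7 by the trend (edgeR adjusted p = 0.0254 and 0.0439).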

How the data were processed

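Total RNA of 40 right kidneys (RNA integrity number at least 7) was sequenced as 150 bp read pairs, per the labels' protocols. The authors deposited whole-number read counts per gene for each library, unstranded and per strand. The submitters' processing notes name FastQC 0.11.7, Trimmomatic 0.39, STAR 2.7.3a, DESeq2, GRCm39 and mm10, with no role given, so no coordinates are taken from the files. The unstranded counts were used, since 50.4 to 51.0% of stranded reads lay in 1 strand column. Unmapped (1.41 to 2.66%), multimapping (6.98 to 9.70%), featureless (5.28 to 7.27%) and ambiguous (5.40 to 5.98%) reads name no gene and stayed out of library sizes. Reads mapping to several places are not counted, which can lower genes with near-identical copies. Names and exon lengths came from GENCODE M21, which named 52083 of 55359 identifiers.

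In R 4.3.3, edgeR 4.0.16 (filterByExpr, TMM factors 0.966 to 1.09, robust quasi-likelihood test) was fitted to all 40 libraries and 17345 genes, each dose against vehicle and, in a second fit, over the dose rank. P-values were adjusted by Benjamini-Hochberg across the tested genes, and a gene was called under 0.05. CPM values use the TMM factors, and log2 CPM a prior count of 2. Biological variation between libraries had a coefficient of 17.1%. The scripts were tested on simulated data. Correlations used 100000 permutations, two-sided. DESeq2 1.42.0 and limma 3.58.1 (voom), other scaling, filters, strand column, dose scale and omitted libraries were alternatives, including 1 added after the data were seen, without the 2 libraries above 100 CPM of adrenal markers.

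The members and lists were chosen with earlier results of these data known. Named are the 10 members, at most 5 genes per list that were called at 30 µg/kg or by the trend (lowest trend p first), and the 5 genes most correlated with Cd3e, Nkg7 and Cd79a. The values of 1 gene taken by this rule are not reported here. Members of the cell marker lists other than those named are given as sums and counts. Without replicate numbers in the labels, replicates carry their order of deposition as a name. Each library is a separate mouse per the design. The edgeR p-values set a difference or slope against the spread between these mice, estimated jointly over the 40 libraries. Those of the correlations came from permuting 1 gene within dose groups. Reads carry no molecular identifiers, so statements on counting cover counting error only.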

Additional observations from a re-analysis of the deposited data

Results flagged for a closer look

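Each group of 5 libraries was examined for a value set apart from the other 4, for the 10 genes and for the total gene count. In 6 of 88 groups the gap to the nearest library exceeded 0.71 of the group's range, where chance gives about 1 in 20 groups, or 4.4 of 88. Cd3d at 0.1 µg/kg was 0.771 CPM in replicate 1, and the next highest library held 0.181 CPM. Cd3e at 0.03 µg/kg was 0.970 CPM in replicate 1, above 0.255 CPM in the next, and this is 1 of the 2 libraries rich in adrenal markers. Cd3e at 0.1 µg/kg was 1.19 CPM in replicate 5, above 0.431 CPM in the next. Total gene counts stood apart in 3 libraries: 22659733 in 0.1 µg/kg replicate 2, 20292573 in 1 µg/kg replicate 1 and 24017319 in 30 µg/kg replicate 5.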

How the results depend on the processing

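Counts of 0 called members at 0.03, 0.1, 0.3, 1, 3 and 30 µg/kg were 0 under every alternative run. At 10 µg/kg the count was 1 with DESeq2, with limma-voom and with only the 2 groups in the fit. The trend count of 2 became 1 with no filter on low counts, 0 on 1 stranded column and 1 without the 30 µg/kg group, and ran from 1 to 2 over the 40 fits that left out 1 library. It was 2 with CPM without TMM, with RLE factors, on a log10 dose scale and with the run of title numbers as a covariate. No result reversed. On the stranded column the trend counts of the lists were 0 for the T cell receptor list (1 in the report), 2 for T cell signalling (6), 1 for regulatory genes (3), 3 for cytotoxic genes (6) and 0 for B cells (2). DESeq2 gave 2 for the T cell receptor list and 4 for B cells. Without the 30 µg/kg group the counts were 2 for the T cell receptor list, 3 for T cell signalling, 1 for B cells and 1 for plasma cells (3). B cells also gave 1 with limma-voom, with no filter and without the 2 adrenal-rich libraries. The cause of these shifts was not tested, beyond the stranded column holding fewer reads. Il7r, Havcr2, Tnfrsf4 and Klrd1 were fitted in 8 alternatives of the trend, beside 9 for Il2rb. A lower count can thus include genes not tested in that alternative. Leaving out 1 library moved the trend count of the T cell receptor list between 1 and 2 and of B cells between 1 and 3. The 6 correlations kept their side of the threshold in every alternative. The members had mean counts of 5.20 to 49.3 per library, and their 95% intervals at 30 µg/kg were as wide as -1.52 to 1.95 log2, for Cd3d. No paired analysis was possible because the labels give no replicate numbers.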

Other observations

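Of 17 chemokines, adhesion molecules and receptors that recruit lymphocytes, all were tested, and 7 rose by the trend, 8 at 10 µg/kg and 5 at 30 µg/kg (edgeR), and none fell. Of all genes 11% rose by the trend, 3.83% rose at 10 µg/kg and 8.39% rose at 30 µg/kg. Cxcl10, a chemokine for activated T and NK cells, stood at 2.39 ± 0.203 CPM in vehicle, 14.5 ± 2.88 CPM at 10 µg/kg and 8.24 ± 6.66 CPM at 30 µg/kg (SD, n = 5). Its log2 fold change was 2.60 ± 0.38 at 10 µg/kg (edgeR adjusted p = 1.04e-05) and 1.79 ± 0.38 at 30 µg/kg (edgeR adjusted p = 0.000849). At 30 µg/kg its values ran from 1.76 to 17.5 CPM and overlapped those of vehicle, 2.09 to 2.58 CPM, and with only those 2 groups in the fit the call was lost (edgeR adjusted p = 0.0808). Cxcl9, a chemokine for the same receptor, rose from 1.97 ± 0.721 to 7.11 ± 1.10 CPM at 10 µg/kg (edgeR adjusted p = 0.000308). The adhesion molecules Vcam1 and Icam1 had log2 fold changes of 1.04 ± 0.16 and 0.65 ± 0.15 at 10 µg/kg (edgeR adjusted p = 7.93e-06 and 0.00240).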
